A study of Mus musculus with 10 samples.

Results

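The cytosolic ribosomal protein genes were taken as every gene whose symbol begins with Rpl or Rps and a digit, together with Rpsa, Rplp0, Rplp1 and Rplp2, leaving out the S6 kinases (Rps6k), pseudogene names with -ps, and the paralogs Rpl22l1, Rpl39l, Rps27l, Rpl7l1 and Rpl3l. This name rule gave 82 of the 19456 genes listed in at least 1 library. Of these, 78 encode core subunit proteins, 31 of the small and 47 of the large subunit. The other 4 are not core genes. Rps19bp1 encodes a nucleolar protein that binds the subunit protein Rps19, and Rpl37rt, Rps4l and Rpl32l are retrotransposed or like copies of Rpl37, Rps4x and Rpl32.

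The cytosolic ribosome pairs a small subunit, which holds the mRNA and reads its codons, with a large subunit, which joins amino acids into the protein chain. Each subunit is a core of ribosomal RNA with many small, basic proteins, most of which are needed in equal numbers, so their mRNAs are among the most abundant of any growing cell. These mRNAs begin with a short run of pyrimidines, the terminal oligopyrimidine (TOP) tract, through which the mTOR kinase and the RNA-binding protein Larp1 set how strongly they are translated. In the intestine, where the epithelium renews itself continuously, ribosome production is highest in the dividing cells of the crypts.

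The libraries were poly-A RNA of intestinal tissue from C57BL/6 mice. The groups were wild type (WT) mice without treatment (3 libraries), ITGB6-overexpressing transgenic (TG) mice without treatment (3), WT mice given 2.5% dextran sulfate sodium (DSS) by mouth (2), and TG mice given the same DSS (2). DSS injures the gut lining and was given here as a model of intestinal fibrosis, while ITGB6 is the epithelial integrin subunit beta 6. The labels name neither the promoter of the transgene, the transgenic line, the sex and age of the mice, the gut segment nor the duration of DSS, nor whether each library is a different animal. A p-value here therefore covers only the variation among these libraries, and part of that may be technical.

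Each library held 15393859 to 18284704 expected counts over 16391 to 16949 listed genes. ITGB6, listed apart from the mouse gene Itgb6, stood at 3520 to 3924 CPM (the expected count scaled to a common library size, in this paragraph the plain total and below the total adjusted by the TMM method) in untreated TG, 2056 to 2365 in TG after DSS and 0.121 to 1.17 in WT. The epithelial genes Epcam and Krt8 were high in all 10 libraries (1599 to 1933 and 5594 to 8530.5 CPM) and the smooth muscle gene Myh11 stayed at or below 0.304 CPM. Xist was at 287 to 720.1 CPM in the 4 DSS libraries and at most 0.439 CPM in the 6 untreated ones, and the Y-linked Kdm5d had the reverse split, so DSS and sex cannot be told apart. TG untreated 1 stood apart from the other untreated TG libraries: the leukocyte gene Ptprc read 8.67 CPM there against 57.9 and 77.8, and the Y-linked Ddx3y 13.8 against 44.5 and 42.9. For untreated TG against WT, and against TG after DSS, the members' median and a count of members are given with and without this library. Values of single genes, marker sums and other gene lists include it.

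The start of the mRNA, where the TOP tract lies, is shown for some of the members, a choice that does not stand for all members named below. Each line gives 30 bases of RefSeq sequence (GRCm38.p6), 15 before and 15 from the annotated start onward, 5′ to 3′ on the gene's strand. The start is 1 listed for the gene in a RefSeq table of promoters, the one with the longest run where there were several, and it need not be the outermost start: for Rpl38 and Rpl7a it lies inside the span of the gene. Capitals mark the longest unbroken run of C and T that touches a base within 5 bases of the start, which may run past the window shown.
Rpl38, chr11:114668565-114668594, plus strand: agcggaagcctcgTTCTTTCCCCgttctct
Rps27, chr3:90213634-90213663, minus strand: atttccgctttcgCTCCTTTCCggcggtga
Rps21, chr2:180257364-180257393, plus strand: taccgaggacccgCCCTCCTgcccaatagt
Rpl14, chr9:120571502-120571531, plus strand: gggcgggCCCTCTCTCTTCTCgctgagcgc
Rps6, chr4:86857353-86857382, minus strand: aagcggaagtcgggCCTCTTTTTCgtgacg
Rpl7a, chr2:26910792-26910821, plus strand: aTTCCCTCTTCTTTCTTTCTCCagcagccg
Rpl41, chr10:128549154-128549183, minus strand: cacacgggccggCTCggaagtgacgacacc
Rpl5, chr5:107900513-107900542, plus strand: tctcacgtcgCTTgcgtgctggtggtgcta
In these windows the run was 10 bases in Rpl38, 9 in Rps27, 7 in Rps21, 14 in Rpl14, 10 in Rps6 and 21 in Rpl7a, the longest among the members. For Rpl41 and Rpl5 it was 3 bases. Rpl37, Rpl36a and Rps28, which were also higher after DSS in both genotypes, are not printed and had runs of 3, 3 and 4 bases. A sequence around the annotated start was at hand for 58 of the 78 core genes. Of these, 32 (55.2%) had a run of at least 5 bases at 1 or more of their annotated starts, against 36.7% of all 27025 genes with such a sequence. A run of at least 10 bases was found in 17 of the 58 (29.3%), against 5.98% of all genes. An annotated start can lie some bases away from the start used in this tissue, and a short run says only that these letters are not in this window.

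The members were among the most abundant mRNAs of the tissue. On the deposited FPKM scale, which divides by gene length and so allows levels to be compared between genes, 37 of the 78 core genes were among the 100 most abundant genes. The median core gene stood at 777 FPKM averaged over the 10 libraries, with the middle 50% of genes between 536 and 1060. The small subunit median was 838 FPKM and the large subunit median 731 FPKM. The 5 highest members were Rpl41, a very short basic peptide of the large subunit, at 2166 FPKM, Rplp1, a protein of the stalk that recruits translation factors, at 1981, Rps2, near the entry of the mRNA channel, at 1589, Rplp0, the base of the stalk, at 1481, and the large subunit protein gene Rpl28 at 1434. The lowest 5 were Rpl32l at 0.333 FPKM, Rps19bp1 at 17.5, Rps4l at 26.8, the core gene Rps15a at 31.5 and Rpl37rt at 85.1. The value of Rps15a rests on a deposited gene length of 5158 bases, the longest among the core members, whose annotated coding sequence holds 393 bases. Rpl32l was at 0 CPM in 3 libraries and never above 0.566 CPM, and was the 1 member that the filter on low counts removed, leaving 81 of 82 for testing.

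Summed over the 82 genes, ribosomal protein mRNA took between 4.18 and 5.21% of a library's expected counts. Untreated WT libraries held 4.25, 4.36 and 4.49% (4.37 ± 0.122, mean ± SD, n = 3), and untreated TG libraries 5.0, 4.92 and 4.18% (4.70 ± 0.449, n = 3). After DSS the share was 4.27 and 5.21% in WT (4.74 ± 0.670, n = 2) and 4.74 and 5.06% in TG (4.90 ± 0.229, n = 2). TG untreated 1 and 2 lay above all WT untreated libraries and TG untreated 3 below them, and the WT DSS libraries were the pair farthest apart, so only the TG DSS libraries sat wholly above untreated WT. The ratio of the median large subunit to the median small subunit gene, a measure of the balance between subunits, ran from 0.811 to 0.902 on the FPKM scale, lowest in both TG DSS libraries. In bulk tissue, fewer cells of a type and less RNA per cell cannot be told apart.

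**Figure D1:**
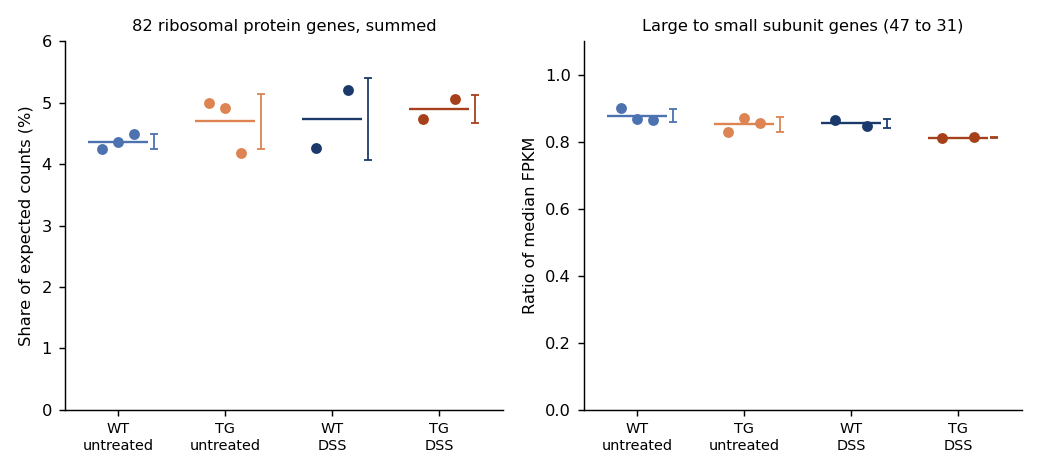
Left, summed expected counts of the 82 ribosomal protein genes as a percentage of each library (points), by group, with the group mean (horizontal line) and SD (bar at the side). Right, the ratio of the median FPKM of the 47 large subunit genes to that of the 31 small subunit genes. The shares span 4.18 to 5.21% and overlap between groups except for TG after DSS against untreated WT, and the ratio is lowest in the 2 TG DSS libraries.

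A few libraries were the highest or the lowest for most genes. Among the 78 core genes, TG DSS 2 was the highest library for 38, TG untreated 1 for 20, WT DSS 2 for 8, TG untreated 2 for 7 and TG DSS 1 for 5. WT untreated 1 was the lowest library for 26, WT DSS 1 for 21 and WT untreated 2 for 15. The median log2 difference of the core genes from the untreated WT mean was 0.33, 0.23 and 0.03 in TG untreated 1, 2 and 3, 0.11 and 0.31 in WT DSS 1 and 2, and 0.27 and 0.40 in TG DSS 1 and 2. Within untreated TG, TG untreated 3 thus lay near untreated WT while the other 2 lay with the DSS libraries.

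Without treatment, no ribosomal protein gene differed between TG and WT at an adjusted p under 0.05 (called, below). The log2 fold change was above 0 for 79 of 81 members, with a median of 0.19, against a median of -0.02 over all 14072 genes tested. By edgeR's quasi-likelihood test 0 were called higher and 0 lower, where 2.26% and 1.44% of all tested genes were called. At an unadjusted p under 0.05, 14 members were higher and 0 lower, beside 1500 and 1419 of the 14072 genes. DESeq2 called 2 members higher, Rpl38 and Rpl41, beside 603 of 14072 genes. The unadjusted count of 14 was 2 without any 1 WT untreated library, without TG untreated 2 or with total count scaling, 7 without TG untreated 1 and 31 without TG untreated 3. In 33 of 81 members the 3 TG libraries all lay above the 3 WT libraries, against 16.7% of all genes tested. In 0 members did they lie wholly below, a direction for which the share of all genes was not computed. Without TG untreated 1 the median was 0.13 and 73 of 81 were above 0. Scaling to total counts in place of TMM gave a median of 0.10 with 72 above 0, and removing a trend on gene length, as described further on, gave a median of 0.03 with 49 above 0 and 0 higher or lower at an unadjusted p under 0.05. Summed markers of some other cells also lay apart between these groups. Goblet cell genes stood at 8669 to 22628 CPM in untreated WT and 26577 to 38186 in untreated TG (2 of 6 called higher). Fibroblast genes stood at 20.4 to 35.9 and 39.8 to 118 CPM (3 of 6). Red blood cell genes stood at 173.9 to 309.6 and 381.5 to 626.5 CPM (0 of 5 higher by edgeR, 5 at an unadjusted p under 0.05, 1 by DESeq2). Leukocyte sums overlapped, at 228 to 434 and 79.6 to 281 CPM (0 of 5 lower by edgeR, 2 at an unadjusted p under 0.05, 0 by DESeq2). The leukocyte sum of 79.6 CPM was that of TG untreated 1, with 201 and 281 CPM in TG untreated 2 and 3. Colonocyte sums overlapped too, at 8803 to 11213 CPM in untreated WT and 5148 to 8870 in untreated TG (1 of 4 called lower, 2 by DESeq2). The part of all these cells in the members' values was not tested.

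Rpl41 had the smallest adjusted p of this comparison. Its levels were 664, 697 and 669.8 CPM in the WT libraries, below 986, 893 and 794 CPM in TG. All 3 TG libraries lay above all WT libraries, a log2 fold change of 0.40 ± 0.12 (SE, adjusted p = 0.0972). Rpl38, a large subunit protein known from mouse mutants with a misshapen axial skeleton, read 112, 112 and 114 CPM in WT and 151, 149 and 126 CPM in TG. These groups did not overlap either, and the log2 fold change was 0.33 ± 0.10 (adjusted p = 0.111). By contrast Rpl5, which with Rpl11 and the 5S rRNA forms a particle that can bind the p53 regulator Mdm2, read 752, 701 and 803 CPM in WT and 709.6, 898 and 746 in TG, with overlapping groups (0.06 ± 0.12, adjusted p = 0.790). In Rpl11 the 3 TG libraries (534, 538 and 456 CPM) lay above those of WT (417, 447 and 440.1 CPM), with a log2 fold change of 0.23 ± 0.12 that was not called (adjusted p = 0.292).

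Between TG and WT after DSS, the median log2 fold change of the members was 0.14, with 72 of 81 members above 0, against -0.01 over all genes. Counts by edgeR were 0 higher and 0 lower (0.178% and 0.00711% of all genes tested). At an unadjusted p under 0.05, 2 were higher and 1 lower, beside 1013 and 565 of 14072 genes. DESeq2 also called 0 members in each direction, beside 197 and 61 of 14072 genes. The 2 TG libraries both lay above the 2 WT libraries in 29 members and both below in 1. The share of all genes was 22% for above and was not computed for below. The median rested on single libraries: it was 0.03 without WT DSS 1, 0.23 without WT DSS 2, 0.21 without TG DSS 1 and 0.08 without TG DSS 2, and 0.05 with total count scaling. With the length trend removed the direction turned, to a median of -0.07 with 22 of 81 above 0. The smallest adjusted p belonged to Rps4l, at 15.3 and 15.6 CPM in TG and 24.2 and 22.4 in WT (log2 fold change -0.59 ± 0.19, adjusted p = 0.264), followed by the small subunit gene Rps14, at 679.6 and 766 CPM in TG and 505 and 565 CPM in WT (0.43 ± 0.15, adjusted p = 0.311). In both genes the groups were apart, with TG the lower in Rps4l and the higher in Rps14.

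A subset of the members differed after DSS. In WT, 16 of 81 were called higher and 1 lower after DSS by edgeR, where 10.2% and 9.62% of all genes tested were called. Among the 2120 other genes above 100 CPM, 14.8% were called higher in WT and 4.34% in TG. In TG, 9 members were called higher and 2 lower, where 3.33% and 2.15% of all genes tested were called. At an unadjusted p under 0.05, 30 members were higher and 2 lower in WT, beside 2390 and 2343 of 14072 genes. In TG these were 25 and 4 members, beside 1470 and 1356 genes. The median log2 fold change was 0.24 in WT (65 of 81 above 0) and 0.14 in TG (57 above 0), beside medians of 0.00 and 0.01 over all genes. In WT the median was 0.11 without WT DSS 2, and in TG it was 0.22 without TG untreated 1, 0.07 without TG untreated 3 and 0.09 without TG DSS 2. The 2 DSS libraries lay above all 3 untreated ones in 49 members in WT (28.4% of all genes) and in 32 in TG (19.1%). They lay below all of them in 6 and 7 members, for which the share of all genes was not computed. Small subunit genes were called in WT in 9 of 31 cases and large subunit core genes in 6 of 47, and in TG in 5 and 4. These comparisons contrast libraries that also differ in sex-linked genes, in summed neutrophil markers (5.38 to 6.22 CPM over the untreated libraries against 17.8 to 35.2 after DSS, of which 5 of 5 and 4 of 5 tested were called higher in WT and TG) and in summed leukocyte markers (79.6 to 434 against 89.5 to 114, with 2 of 5 called lower in WT and 0 in TG by edgeR, where 2 had an unadjusted p under 0.05 and DESeq2 called 0). Summed red blood cell genes went from 173.9 to 309.6 CPM in untreated WT and 381.5 to 626.5 in untreated TG to 9.45 to 12.6 and 61.7 to 203 CPM after DSS (5 and 3 of 5 called lower). In WT, colonocyte genes went from 8803 to 11213 CPM untreated to 3639 to 5951 after DSS (4 of 4 called lower), T cell genes from 76.2 to 148 to 25.4 to 35.2 CPM (5 of 6), and stem cell genes from 37.3 to 52.1 to 9.09 to 43.5 CPM (2 of 3). In TG, fibroblast genes went from 39.8 to 118 CPM to 20.7 to 21.9 (3 of 6 called lower). Colonocyte genes in TG stood at 5148 to 8870 CPM untreated and 7591 to 9802 after DSS, with 0 of 4 called lower and 1 higher. Their interaction was called higher for 1 of 4 by edgeR and 3 by DESeq2. For T cell and stem cell genes 0 were called lower in TG by edgeR (3 of 6 and 2 of 3 at an unadjusted p under 0.05). Macrophage genes were called higher for 2 of 7 markers in each genotype, and endothelial genes lower in 2 of 2 tested in WT and 1 in TG. No marker with a row in the data was at 0 in all libraries, and 6 of the 7 T cell markers chosen had a row. The part of these cells in the members' values was not tested.

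Every gene called higher in TG was also called in WT. All 9 genes called higher in TG (100%) were among the 16 called in WT (56.25%), among them Rpl14, Rpl36a, Rpl37 and Rpl38 of the large subunit, and Rps21, Rps27, Rps28 and Rps29 of the small subunit. The WT and TG comparisons share no library, but both come from 1 fit whose spread was estimated over all 10 libraries, so their calls are not independent. With only the groups compared in each fit, 2 members, Rpl38 and Rps27, were called higher in TG, beside 228 of 13633 genes. In WT these were 26 members, beside 1740 of 13777 genes. Over the 78 core genes their log2 fold changes had a Pearson correlation of 0.925 and a Spearman correlation of 0.903, with 66 of 78 of the same sign, a description across genes that share depth, gene length and sex split within each comparison. The genotype by DSS interaction, the difference between these 2 effects, was called for 0 members higher and 0 lower by edgeR (0.526% and 0.32% of all genes). At an unadjusted p under 0.05, 0 members were higher and 1 lower, beside 975 and 728 of 14072 genes. DESeq2 also called 0 members (241 and 189 of 14072 genes), so a difference between the genotypes was not shown.

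**Figure D2:**
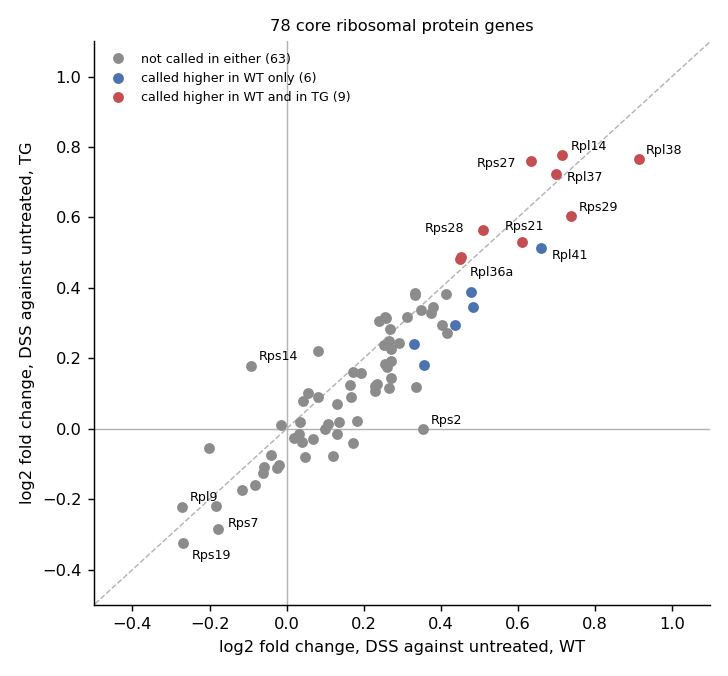
log2 fold change after DSS in WT (horizontal axis) against TG (vertical axis) for the 78 core genes, coloured by whether edgeR called the gene higher, with the line of equal change dashed. The 9 genes called in both lie between 0.45 and 0.91 in WT and the points follow the dashed line, with Rps2 (0.36 and 0.00) and Rps14 (-0.09 and 0.18) among the farthest from it.

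The largest rise in WT was that of Rpl38 (gene 67671, chromosome 11, 114667818 to 114672333, GRCm38.p6). Its level was 112, 112 and 114 CPM in untreated WT and 207 and 218 CPM after DSS, and 151, 149 and 126 CPM in untreated TG and 223 and 259 after DSS. Every DSS library lay above every untreated library, by a log2 fold change of 0.91 ± 0.11 in WT (1.88-fold, adjusted p = 0.000783) and 0.77 ± 0.11 in TG (adjusted p = 0.0042).

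Rps29 and Rps27, both zinc-binding proteins of the small subunit, also rose in both genotypes. Rps29 (gene 20090, chromosome 12, 69157722 to 69159186) read 239.8, 240.3 and 232 CPM in untreated WT and 409 and 383 after DSS, and 319.6, 279 and 261 CPM in untreated TG and 392 and 479 after DSS. The groups were apart in both genotypes, with log2 fold changes of 0.74 ± 0.12 (adjusted p = 0.00382) and 0.60 ± 0.12 (adjusted p = 0.0194). Rps27 (gene 57294, chromosome 3, 90212667 to 90213648) read 277, 287 and 289 CPM in untreated WT, 459 and 424 in WT after DSS, 329, 319 and 264 in untreated TG, and 506 and 522 in TG after DSS. All 4 DSS libraries exceeded all 6 untreated ones, by 0.63 ± 0.12 in WT (adjusted p = 0.00561) and 0.76 ± 0.11 in TG (adjusted p = 0.00466).

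In the large subunit, Rpl37 (gene 67281, chromosome 15, 5116613 to 5119140), itself a zinc-binding protein, rose from 202, 191 and 194 CPM to 319 and 317 in WT and from 224, 261 and 216 CPM to 352 and 420.4 in TG. The groups did not overlap, and the log2 fold changes were 0.70 ± 0.12 (adjusted p = 0.0041) and 0.72 ± 0.12 (adjusted p = 0.00652). Rpl14 (gene 67115, chromosome 9, 120571517 to 120574653), a protein on the solvent side of the large subunit, stood at 263, 263 and 284 CPM in untreated WT, 367 and 519.7 in WT after DSS, 333, 266 and 274 in untreated TG, and 462 and 534 in TG after DSS. Its DSS libraries were all above its untreated ones but far apart in WT, with log2 fold changes of 0.71 ± 0.16 (adjusted p = 0.0134) and 0.78 ± 0.16 (adjusted p = 0.02). Both genes have a near-identical copy that moved the other way, described further on.

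Rps21 and Rps28, also called in both genotypes, changed less. Rps21 (195, 194 and 204 CPM in untreated WT, 282 and 323 after DSS) and Rps28, at the exit of the mRNA channel (217, 235 and 237 CPM, then 336 and 317), rose by 0.61 ± 0.12 and 0.51 ± 0.13 on the log2 scale in WT (adjusted p = 0.00848 and 0.0201). In TG their changes were 0.53 ± 0.12 and 0.56 ± 0.13 (adjusted p = 0.0328 and 0.0291). In both genes and both genotypes the DSS libraries lay above the untreated ones.

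Rpl41, the most abundant member, was called in WT and narrowly missed the threshold in TG. Its untreated WT levels of 664, 697 and 669.8 CPM compared with 981 and 1158 after DSS, and its untreated TG levels of 986, 893 and 794 CPM with 1171 and 1374. DSS was above untreated in both genotypes, by 0.66 ± 0.13 (adjusted p = 0.00843) and 0.51 ± 0.13 (adjusted p = 0.0505). Rps12, Rps15a, Rps23, a protein of the decoding centre, and Rps25, known for its part in internal initiation, were also called in WT, with log2 fold changes of 0.44, 0.36, 0.33 and 0.48, as was Rpl36al, the autosomal relative of Rpl36a, with 0.48. In TG these 5 had values of 0.18 to 0.39 that were not called. The call of Rps15a was lost when its copies were summed, as given below. Rps19bp1, which is no subunit protein, read 11, 8.57 and 10.9 CPM in untreated WT and 14.4 and 17.7 after DSS, a log2 fold change of 0.66 ± 0.19 (adjusted p = 0.0336), and 15.6, 12.7 and 11.9 CPM in untreated TG and 17.5 and 22.1 after DSS (0.57 ± 0.18, adjusted p = 0.112). Its groups were apart in both genotypes.

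**Figure D3:**
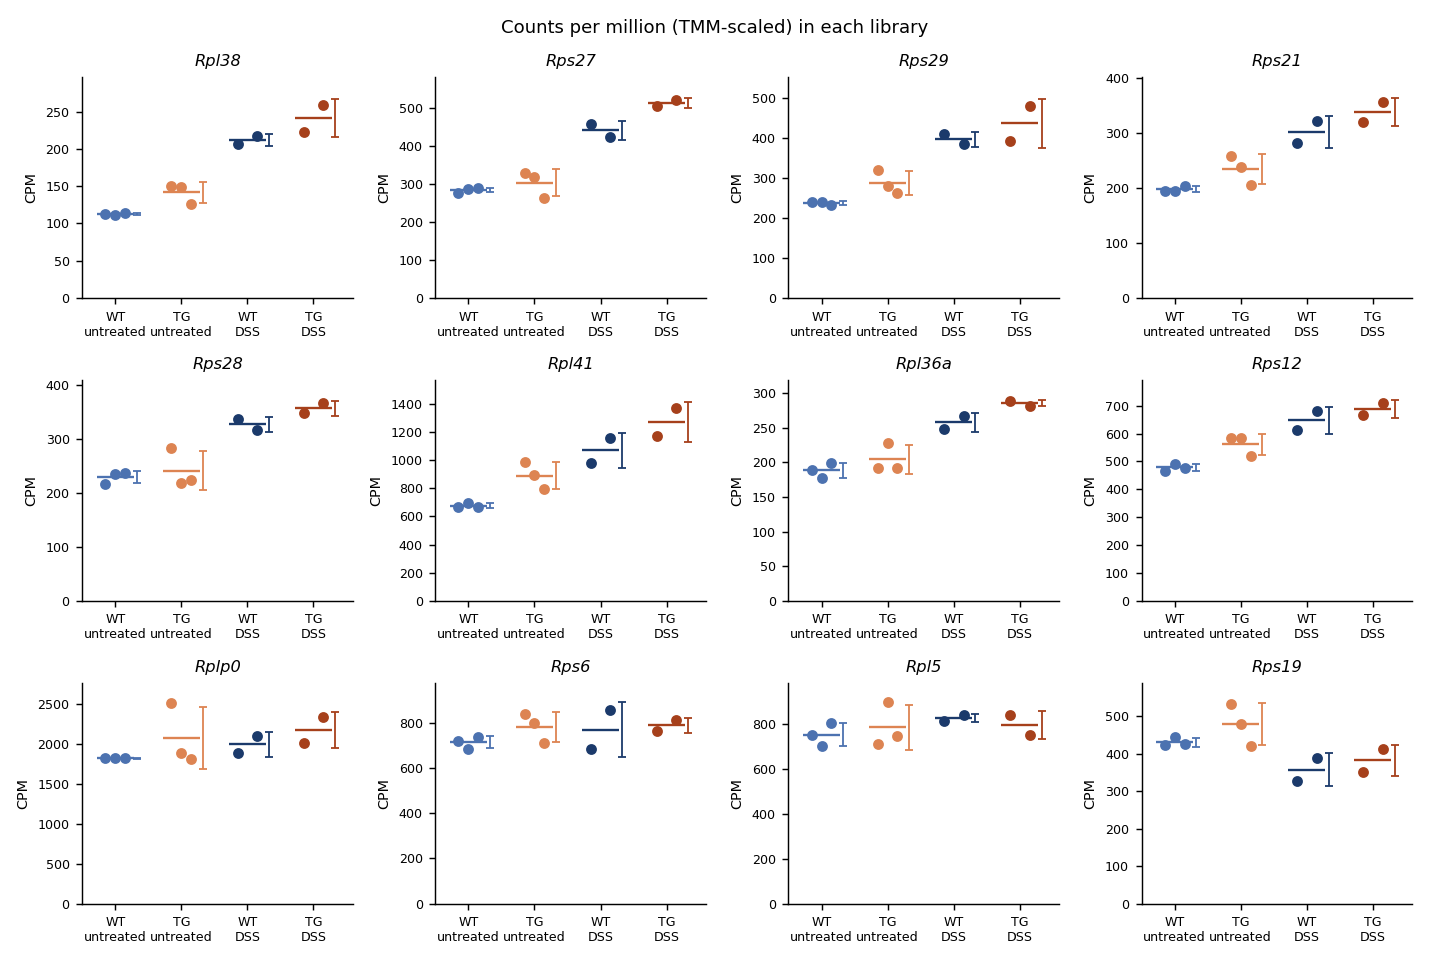
CPM of 12 core genes in each library (points), by group, with the group mean (line) and SD (bar at the side), on axes that start at 0. The top 2 rows hold genes called higher after DSS in WT, with all DSS points above the untreated points of the same genotype, and the bottom row holds Rplp0, Rps6, Rpl5 and Rps19, none of which was called.

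These calls did not all rest on every library. In WT, Rpl37, Rpl38, Rps27 and Rps29 were called under all 24 alternative analyses, including each fit without 1 library. Leaving out WT untreated 1 gave 6 called higher, and leaving out WT untreated 2 or 3 gave 7. Over all genes the calls higher also moved, from 1434 of 14072 to 701 of 14042, 734 of 14011 and 713 of 14028. Without WT DSS 2, which leaves 1 WT DSS library, the members' median log2 fold change was 0.11. In TG, leaving out TG untreated 3 gave 3, TG untreated 2 or WT untreated 3 gave 5, WT untreated 1 or 2 gave 6, and TG untreated 1 gave 16. Over all genes, 468 of 14072 were called higher with every library. Without TG untreated 1, 2 or 3 these were 774 of 14054, 304 of 14042 and 264 of 14021. Without WT untreated 1, 2 or 3 they were 347 of 14042, 394 of 14011 and 355 of 14028. Without TG DSS 1 or 2, which leaves 1 TG DSS library, the members' median log2 fold change was 0.18 or 0.09. With upper quartile scaling, TG counts were 5 higher and 2 lower, beside 417 and 362 of 14072 genes. DESeq2 called 23 higher in WT and 11 in TG, beside 1678 and 669 of 14072 genes.

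Many well-known members were not called. Rplp0, often used as a reference gene, read 1827, 1817 and 1820.3 CPM in untreated WT, and 2516, 1884 and 1816 CPM in the untreated TG libraries. After DSS it read 1887 and 2104 CPM in WT and 2016 and 2334 CPM in TG. The 3 untreated WT libraries were nearly equal while TG untreated 1 was the highest of all 10, and the DSS log2 fold changes were 0.13 ± 0.15 in WT (adjusted p = 0.598) and 0.07 ± 0.15 in TG (adjusted p = 0.856). Its partners in the stalk, Rplp1 and Rplp2, had values of 0.27 and 0.25 in WT and 0.28 and 0.24 in TG. Rps6, the subunit protein phosphorylated by S6 kinase, stood between 683 and 856 CPM in all 10 libraries, with overlapping groups and DSS log2 fold changes of 0.11 ± 0.13 and 0.01 ± 0.13. Rpl5, at 701 to 898 CPM, had values of 0.14 ± 0.13 in WT and 0.02 ± 0.13 in TG, and Rpl11 0.05 ± 0.13 and 0.10 ± 0.13. Rpsa, also known as a laminin-binding protein, read 1068 to 1587 CPM, with the highest level in TG untreated 1, and Rpl22, an RNA-binding protein needed for T cell development, read 232 to 310.1 CPM, with DSS values of 0.26 ± 0.12 and 0.17 ± 0.12.

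Some core genes had lower values after DSS without being called. Rps19, the gene most often mutated in the inherited anaemia of Diamond and Blackfan, read 422, 444 and 426 CPM in untreated WT and 326 and 388 after DSS, and 533, 479 and 422 CPM in untreated TG and 352 and 412 after DSS. Its DSS libraries were below its untreated ones in both genotypes, with log2 fold changes of -0.27 ± 0.13 (adjusted p = 0.189) and -0.32 ± 0.13 (adjusted p = 0.209). Rpl9 (-0.27 and -0.22), Rps7 (-0.18 and -0.28) and Rps4x (-0.18 and -0.22) shared this order of the libraries. Rps27a, which is made as a fusion with ubiquitin and is thus a source of free ubiquitin, had -0.12 ± 0.12 and -0.18 ± 0.12.

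Since the DSS libraries differ from the untreated ones in Xist and Kdm5d, the 4 members on the X chromosome were looked at apart. Rpl36a, near the exit site for tRNA, was called higher in both genotypes, from 189, 177 and 199 CPM to 248 and 267 in WT and from 192, 229 and 192 to 289 and 282 in TG (0.45 ± 0.11, adjusted p = 0.0206, and 0.48 ± 0.11, adjusted p = 0.0349). Rpl39, which lines the exit tunnel, had 0.33 ± 0.11 and 0.39 ± 0.11 (adjusted p = 0.0646 and 0.0818). Rpl10, which joins late in large subunit assembly, had 0.12 ± 0.15 and -0.08 ± 0.15, and Rps4x was lower, as given above. The 4 X-linked genes had no common direction. Their medians were 0.23 in WT and 0.15 in TG, beside 0.24 and 0.15 over the 78 core genes. These values cannot separate sex from DSS, for X-linked or for other members.

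Of the members that fell, Rpl37rt (gene 100502825, chromosome 5, 115102922 to 115110268), a retrotransposed copy of Rpl37, fell in both genotypes. It read 67.8, 71.8 and 71.2 CPM in untreated WT and 33.1 and 26.2 after DSS, and 90.3, 69.1 and 65.9 CPM in untreated TG and 36 and 20.7 after DSS. No untreated library came near a DSS library, and the log2 fold changes were -1.24 ± 0.23 in WT (adjusted p = 0.00597) and -1.41 ± 0.23 in TG (adjusted p = 0.00688). Over the coding part, 293 of 294 bases of Rpl37rt match Rpl37 in the GENCODE transcripts of GRCm38. The stretch of 40 coding bases around the single difference is shown because reads can tell the genes apart within the coding part only there, with the differing base in capitals.
Rpl37: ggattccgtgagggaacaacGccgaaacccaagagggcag
Rpl37rt: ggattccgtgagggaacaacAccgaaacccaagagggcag
The difference is G249A, counted from the A of the start codon, with the Rpl37 base first. The expected counts of both genes were not whole numbers in any of the 10 libraries, so reads had been divided between genes before deposit. The share of Rpl37rt in the sum of the pair was 26.4% on average in untreated WT and 8.52% after DSS, and 24.3 and 6.97% in TG. Summing both before the fit, an alternative added after the values were seen, lowered the log2 fold change of Rpl37 to 0.39 ± 0.11 in WT (adjusted p = 0.0307) and 0.42 ± 0.11 in TG (adjusted p = 0.048), and the call held.

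**Figure D4:**
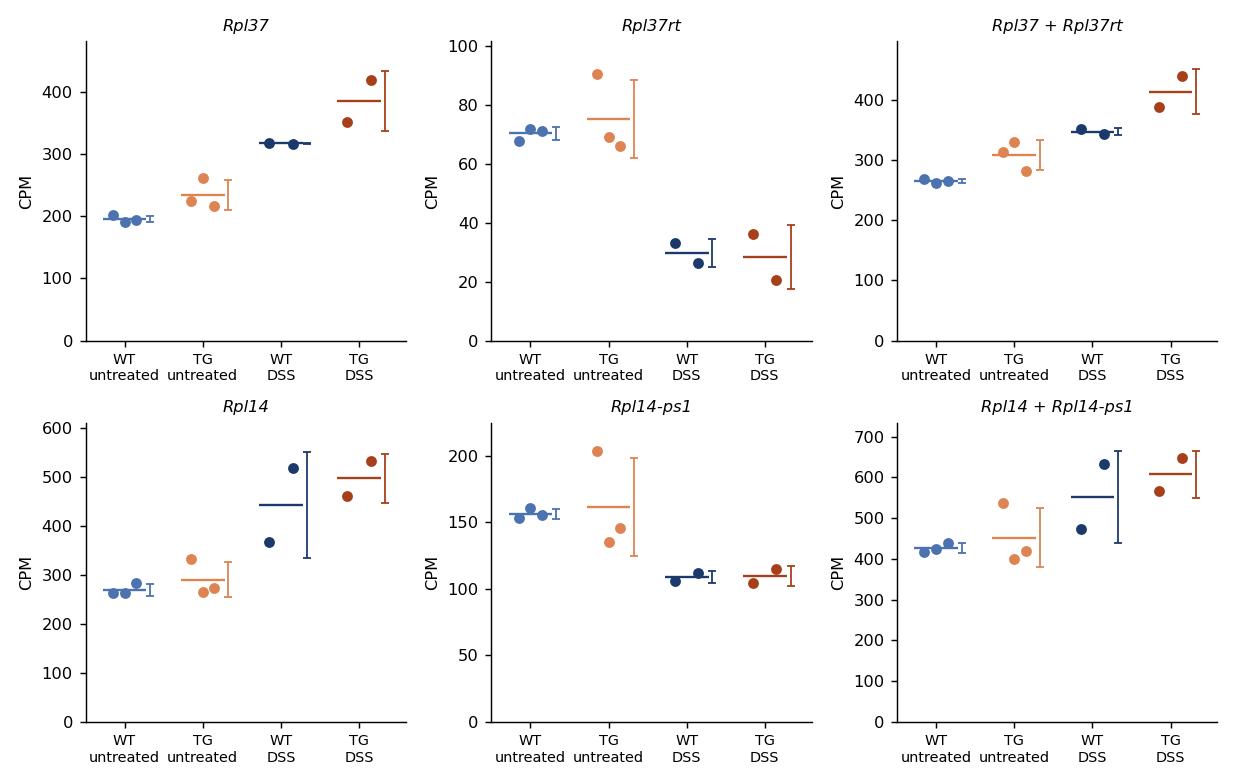
CPM in each library (points), with group mean (line) and SD (bar at the side), for Rpl37, its copy Rpl37rt and their sum (top), and for Rpl14, the pseudogene Rpl14-ps1 and their sum (bottom). After DSS each parent gene is higher and its copy lower, and the sums move less than the parents.

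Other parent genes showed the same kind of exchange with pseudogene rows that the name rule leaves out. Rpl14-ps1, 98.9% identical to the Rpl14 coding sequence, held 36.7% of the pair in untreated WT and 20.1% after DSS, and 35.5 and 18.1% in TG. With copies summed, Rpl14 was no longer called, at 0.37 ± 0.16 in WT (adjusted p = 0.13) and 0.43 ± 0.16 in TG (adjusted p = 0.163). Rpl34-ps1, 99.4% identical to Rpl34, went from 3.21 to 0.0238% of its pair in WT and from 3.48 to 0.146% in TG, and Rps15a-ps6 from 36.2 to 27.8% and from 35.6 to 27.3%. Another copy, Rps15a-ps4, moved the other way, from 7.42 to 10.6% of its pair with Rps15a in WT and from 8.26 to 12.2% in TG, and was itself called higher in WT (0.93 ± 0.22, adjusted p = 0.0172). With copies summed Rps15a was not called in WT (0.23 ± 0.11, adjusted p = 0.198). Rpl31-ps12, 94.1% identical to Rpl31, also gained, from 15.8 to 26.3% in WT and from 15.8 to 28.4% in TG. This copy was called higher in both (1.19 ± 0.16, adjusted p = 0.00133, and 1.27 ± 0.16, adjusted p = 0.00189). Rpl31 alone was not called, and its sum with the copy was called higher in both genotypes. With copies summed, 15 members were called higher in WT and 9 in TG (1431 and 463 of all 14063 genes), and 0 lower (1 and 2 at an unadjusted p under 0.05). How reads were divided between such near-identical genes is not stated, so single values of these genes are uncertain.

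Rps4l (gene 66184, chromosome 6, 148354656 to 148355596), a copy related to the X-linked Rps4x, was called lower in TG only. Its levels were 27.8, 24.6 and 30.3 CPM in untreated TG and 15.3 and 15.6 after DSS, and 24.1, 35.1 and 26.6 in untreated WT and 24.2 and 22.4 after DSS. The TG groups were far apart and the WT groups overlapped, with log2 fold changes of -0.84 ± 0.17 (adjusted p = 0.0212) and -0.30 ± 0.17 (adjusted p = 0.25). The interaction for Rps4l was not called (-0.54 ± 0.24, adjusted p = 0.408), so a difference between genotypes was not shown. Rps4l matches Rps4x at 79.7% of aligned coding bases, far less than the copies above.

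By length class, the median change was largest in the shortest core genes. Of the 78 core genes, 4 have a deposited gene length under 400 bases (Rpl38, Rps28, Rps27 and Rps21) and all 4 were called higher in both genotypes, with median log2 fold changes of 0.62 in WT and 0.66 in TG. Among the 16 core genes under 500 bases, 7 were called in WT and 6 in TG, with medians of 0.38 and 0.36. Among the 62 longer ones 8 and 3 were called (12.9 and 4.84%), with medians of 0.17 and 0.11. Of all other genes above 100 CPM, whatever their length, 14.8% were called higher in WT and 4.34% in TG. Of those under 400 bases, 2 of 4 were called higher in WT and 1 of 4 in TG. From 400 to below 500 bases these were 3 of 10 in each genotype. Length did not order single genes: Rpl14 and Rpl37, both in the longer class, were among the largest changes, and Rpl36, at 425 bases, had 0.03 in WT and 0.02 in TG. The rank correlation of length with the log2 fold change over the 78 core genes was -0.29 in WT and -0.39 in TG. Over the 2120 other genes above 100 CPM it was -0.08 and -0.15, and 14 of these are under 500 bases. Against untreated WT, the median log2 difference of these 14 was 0.26 and 0.15 in WT DSS 1 and 2, 0.40 and 0.49 in TG DSS 1 and 2, and already 0.17, 0.24 and 0.09 in TG untreated 1, 2 and 3. The same measure over the 16 core genes under 500 bases was 0.29 and 0.44, 0.50 and 0.63, and 0.35, 0.26 and 0.04.

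In each of the 4 DSS libraries the median of the short core genes lay above that of the other short genes, which was itself above untreated WT. When each library's smooth trend on gene length was removed, an alternative added after the values were seen and fitted on genes that are no member, the median log2 fold change of the 81 members became 0.04 in WT and -0.03 in TG. The calls became 6 higher and 4 lower in WT and 3 higher and 5 lower in TG. Over all 14072 genes they were then 1217 and 1444 in WT and 372 and 338 in TG. Rpl14, Rpl37 and Rps27 were then called higher in both, Rpl38, Rps29 and Rpl41 in WT, and Rps19, Rpl9 and Rpl37rt lower in both. Of the 81 members, 49 then lay above 0 in WT (65 before) and 35 in TG (57 before). RNA quality was not given in the labels, and its part in the length trend was not tested.

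**Figure D5:**
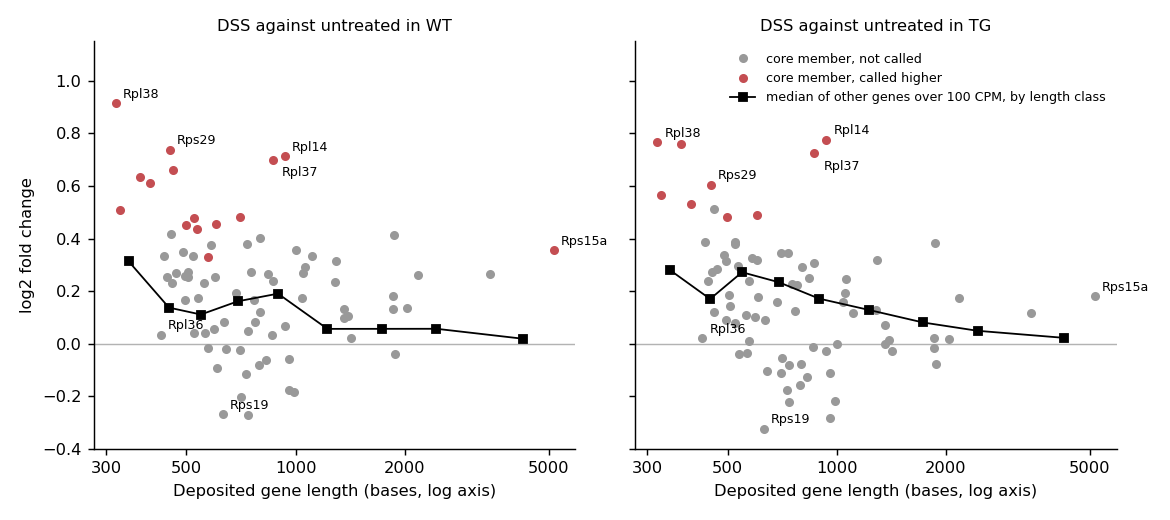
log2 fold change after DSS against deposited gene length (log axis, bases) for the 78 core genes in WT (left) and TG (right), red where edgeR called the gene higher, with the median of other genes above 100 CPM in each of 9 length classes (black squares, drawn at the middle of the class). The 4 genes under 400 bases are all red in both panels, and the black medians, from 4 genes in the shortest class, go from 0.31 and 0.28 there to 0.02 and 0.02 in the longest.

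Pyrimidine runs were found among called and uncalled members alike. Of the 9 genes called in both genotypes, 7 had a start sequence, and 4 of these had a run of at least 5 pyrimidines, with a median run of 7 bases over the 7. Of the other 51 core genes 28 had such a run, with a median of 5. Rps6 and Rpl7a, with runs of 10 and 21 bases as printed above, were not called, and Rpl41, with 3, was called in WT.

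Genes that work beside the ribosomal proteins gave the context. Of 17 other mRNAs known to carry a TOP tract, such as the elongation factor genes Eef1a1 and Eef2, 0 were called after DSS in WT by edgeR (4 higher and 1 lower at an unadjusted p under 0.05) or DESeq2, with a median of 0.16, and 0 in TG by edgeR (0 unadjusted) or DESeq2, with a median of 0.04. The paralog Rps27l, a p53-inducible relative of Rps27 that the name rule leaves out, was called higher in WT, from 54.3, 52.6 and 56.9 CPM to 84.5 and 101 (0.76 ± 0.14, adjusted p = 0.00548). Its DSS libraries lay above the untreated ones. In TG its value was 0.45 ± 0.14 (adjusted p = 0.094).

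Other parts of the translation machinery are set here beside the 10.2% (WT) and 3.33% (TG) of all genes called higher after DSS. Of 42 genes of ribosome assembly and rRNA transcription, 13 were called higher in WT (median 0.42), among them Nhp2 (0.99 ± 0.25), a protein of the pseudouridylation particle, and Mrto4 (0.91 ± 0.20), an assembly factor of the stalk. In TG, 0 were called higher by edgeR (6 at an unadjusted p under 0.05, 0 by DESeq2, median 0.11) and Utp20, a small subunit assembly factor, was lower (-0.54 ± 0.12, adjusted p = 0.0321). Without treatment Bysl and Ppan, also assembly factors, were higher in TG than in WT (0.69 ± 0.16 and 0.58 ± 0.14, adjusted p = 0.0428 and 0.0486). The interaction was called for 0 of the 42 by edgeR, with 5 lower at an unadjusted p under 0.05 and 2 lower by DESeq2. Among 24 translation initiation factors 7 were called higher in WT, such as Eif5a (0.70 ± 0.18), and 0 in TG (5 higher at an unadjusted p under 0.05, 1 by DESeq2). Of 77 mitochondrial ribosomal proteins 16 and 2 were called higher, and Mrps21 was called in both (0.65 ± 0.11 and 0.63 ± 0.11).

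Proliferation genes rose after DSS in WT. There 14 of 17 were called higher after DSS (median 1.27), and in TG 0 were called by edgeR or DESeq2 (1 at an unadjusted p under 0.05, median 0.35), while the interaction was called for 0 by edgeR (7 lower unadjusted) or DESeq2. Mki67, which marks dividing cells, read 116, 113 and 123 CPM in untreated WT and 236 and 559 after DSS (1.76 ± 0.48, adjusted p = 0.0288). It read 44.4, 159 and 174 CPM in TG untreated 1, 2 and 3, and 210 and 176 in TG after DSS. WT DSS 2, the library with the highest Mki67, also had the higher ribosomal protein share in its group (5.21 against 4.27%). Within both TG groups the order was the reverse. TG untreated 1 had the lowest Mki67 of its group and the highest share (5.0%), and TG untreated 3 the highest Mki67 and the lowest share (4.18%). TG DSS 1 had more Mki67 than TG DSS 2 and the lower share (4.74 against 5.06%). The part of proliferating cells in the share was not tested. Of 14 regulators of ribosomal protein synthesis, Max (-0.42 ± 0.11) and Rptor (-0.40 ± 0.12) were called lower in WT and 0 in TG by edgeR (0 unadjusted) or DESeq2, and Larp1, at 194 to 272 CPM, and Myc were not called in either DSS comparison. Of 10 p53 targets 3 were lower in WT, among them Cdkn1a, an inhibitor of the cell cycle, which was also lower in TG (-0.99 ± 0.18, adjusted p = 0.00586, and -0.72 ± 0.18, adjusted p = 0.0462), and Mdm2 stood between 30.4 and 41.3 CPM in every library.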

How the data were processed

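Poly-A RNA of intestinal tissue was sequenced in 10 libraries, grouped by the labels. The authors deposited expected counts per gene and, per the file headers, FPKM, which within each library were close to proportional to the expected count over the gene length. Per the submitters' processing notes the tools were HISAT2 2.0.4, Bowtie2 2.2.5 and RSEM 1.2.12, on mm10, with no role given. A gene not listed in a library was set to 0. After rounding, TMM scaling and the filterByExpr filter (minimum count 10, minimum total 15) 14072 genes remained. edgeR 4.0.16 (R 4.3.3) tested contrasts of the 4 group means by quasi-likelihood, using every library (biological coefficient of variation 0.171, 6 residual degrees of freedom), with Benjamini-Hochberg adjustment over all genes. DESeq2 1.42.0 and limma 3.58.1 served as alternatives. Same-group libraries differed beyond counting error (chi-square per gene 9.61 to 61.6 over 8 pairs). The test was checked on simulated data. Members and lists were chosen with earlier results of these data known. Named are, per comparison, the 5 largest called rises and falls, members followed throughout, the highest and lowest 5 FPKM, and, per list, up to 4 called genes. Rpl7a, Rpl9, Rpl31, Rpl34, Rpl36, Rps7, Rps12, Rps14, Rps19, Rps21, Rps23, Rps25, Rps28, Larp1, Myc and Mdm2 were named after their values were seen. Some single results are not reported here.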

Additional observations from a re-analysis of the deposited data

How the results depend on the processing

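Each called member kept its direction in the alternatives that tested it (with copies summed, Rpl37rt and Rps4l were merged into their parent genes and had no value of their own), and counts of members called moved. Higher after DSS in WT (16) became 26 with only the groups compared, 7 with the replicate block and 6 with the length trend removed, and 4 to 23 without 1 library. In TG (9) the counts were 5 with upper quartile scaling, 2 with only the groups compared, 3 with the replicate block, 3 with the length trend removed and 0 to 16 without 1 library. Lower after DSS in WT (1) became 2 with limma on log2 FPKM (pseudocount 1 or 0.1), 0 with copies summed, 4 with the length trend removed and 0 to 1 without 1 library, and in TG (2) 1 with the replicate block, 0 with copies summed, 5 with the length trend removed and 0 to 2 without 1 library. DESeq2 called 2 members higher in untreated TG, beside 603 of 14072 genes. Calls over all genes moved as well. Higher after DSS in WT were 1740 of 13777 genes with only the groups compared and 824 of 14072 with the replicate block. In TG these were 228 of 13633 and 209 of 14072. With limma on log2 FPKM 1573 and 1562 of 12335 were lower in WT. With the length trend removed, 1217 were higher and 1444 lower in WT, and 372 and 338 in TG. With copies summed, 1349 and 295 of 14063 were lower in WT and TG. As a share of summed FPKM the members held 11.8, 12.3, 12.8 and 12.9% in untreated WT, untreated TG, WT DSS and TG DSS, and with TMM-scaled library sizes 4.18% in untreated WT and 5.17% in TG DSS. Same-numbered untreated WT and TG libraries did not deviate together (correlations 0.0831, -0.0133 and -0.186), untreated and DSS libraries of the same number had correlations of -0.29 to 0.0132, and the 2 pairs of WT and TG DSS libraries had 0.206 each, so the numbers were not taken as a pairing. The interaction was not fitted with only the groups compared, since it uses all groups. Groups of 2 and 3 libraries limit the precision. Copies summed, the length trend and the TMM-scaled share were added after the data were seen.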

Other observations

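Of 73 tested subunits of oxidative phosphorylation, 5 were called higher and 3 lower after DSS in WT, beside 10.2% and 9.62% of all genes tested, and 5 higher and 1 lower in TG, beside 3.33% and 2.15%. Ndufa3, a complex I subunit, read 69.8, 73.4 and 82.3 CPM in untreated WT and 138 and 107 after DSS, and 90.7, 81.8 and 80.3 CPM in untreated TG and 137 and 146 after DSS. Its DSS libraries lay above the untreated ones in both genotypes (0.70 ± 0.13, adjusted p = 0.00633, and 0.75 ± 0.13, adjusted p = 0.00961). Atp5k, with a deposited length of 356 bases, rose by 0.56 ± 0.11 and 0.50 ± 0.11 on the log2 scale (adjusted p = 0.00816 and 0.0283).

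The nuclear noncoding RNA Neat1 was lower in untreated TG than in untreated WT, at 207, 288 and 248 against 586, 486 and 612 CPM (log2 fold change -1.18 ± 0.23, adjusted p = 0.024). All 3 TG libraries lay below all WT libraries.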
